A study of Mus musculus with 9 samples.

Results

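RENCA cells in which Ndufa4l2 was re-expressed on a knockout background (rescue) were compared with the knockout cells across all genes of the deposited count table. The comparison was between 6 of the 9 libraries of the series, 3 rescue and 3 knockout. All 9 entered the filter on low counts, the scaling and the estimate of spread. Of the 54532 listed genes 13326 passed the filter and were tested. RENCA is a mouse renal carcinoma line, grown here in RPMI medium with serum. Rescue cells, genotype NDUFA4L2 +/+ in the labels, were knockout cells carrying Ndufa4l2 from a third-generation lentivirus and selected with puromycin at 1.5 ug/mL. Knockout cells, NDUFA4L2 -/-, were edited with Cas9 and a single guide from the plasmid PX458 and expanded from single-cell colonies that were screened by qPCR. The remaining 3 libraries came from cells with an empty vector, labelled WT, and are given as a reference. No treatment other than the vectors and their selection is named for any group. Rescue and knockout differ in the virus and the puromycin as well as in Ndufa4l2, and these cannot be told apart here, nor can differences between single-cell clones, which the labels do not number. The labels leave unsaid whether cells with the empty vector came from a single colony too, and which knockout clone received the virus. The labels do not say whether replicates were separate cultures, so all p-values measure only the spread between libraries, which may be technical.

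Ndufa4l2 encodes a small mitochondrial protein related to Ndufa4, a subunit of the respiratory chain that sits with cytochrome c oxidase. It is known as a target of the hypoxia-inducible factors, is often abundant in clear cell renal carcinoma, and has been linked to lower respiratory activity. Respiratory complexes are built from proteins of both the nuclear and the mitochondrial genome, so both sets of mRNAs are described here. Interferon-stimulated genes, which are set off by sensors of foreign or misplaced nucleic acid, mitochondrial DNA among them, are described with them, as are the lysosome, the secretory pathway, the matrix and the cell cycle.

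Library totals ran from 13106531 to 25305299 counts in knockout and from 15164167 to 26643877 in rescue. Mitochondrially encoded genes took 7.01% ± 1.10 (SD, n = 3) of all knockout counts, 2.47% ± 0.21 in rescue and 2.79% ± 0.55 in empty vector, a share that also moves with RNA quality. Of 18 renal tubule markers 10 were tested, with Pax8, Pax2 and Cdh16 expressed in all groups, so transcription factors that define the renal epithelium were present. Of 18 leukocyte markers only 5 were tested. The antigens Cd3e, Itgam and Adgre1 had 0 counts in all 9 libraries, and Ptprc, the pan-leukocyte antigen, had 2 counts in knockout and 1 in rescue. As these are bulk samples, fewer cells of a kind and less RNA per cell cannot be told apart in any of the comparisons.

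The re-expressed gene was measured at a low level. The guide overlaps the start codon of Ndufa4l2 in exon 1 on mm10, chr10:127514980-127514999 on the plus strand, and is shown because the count table covers the whole gene and not the edited bases. Capitals mark the start codon and the 3 bases that follow the guide.
Ndufa4l2 guide site: agATGgcaggaactagtctaGGG
Ndufa4l2 stood at 0.445, 0.661 and 0.253 CPM in the knockout libraries, 2.6, 2.63 and 2.2 in rescue and 0.533, 0.386 and 0.642 in empty vector. Each rescue library lay above every other library, while knockout and empty vector overlapped. The log2 change from knockout to rescue was 2.57 ± 0.34 (SE; adjusted p = 2.2e-06). A small edit over the start codon need not remove the mRNA, so these levels check the rescue label and say nothing about the knockout label. The level of the vector-borne mRNA depends on how much of it the counted gene model covers, which was not tested. Shmt2, on the minus strand, runs into the last bases of Ndufa4l2, and whether counting used the strand is not stated, so reads there cannot be assigned with certainty. Ndufa4, the related subunit, was measured at 115, 120.1 and 111 CPM in knockout and 98.2, 109 and 99.7 CPM in rescue, groups that did not overlap but lay close together. Its log2 change of -0.17 ± 0.06 (SE; adjusted p = 0.027) turned to 0.01 (adjusted p = 0.89) when libraries were scaled by their totals alone.

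Across all genes, 7567 of the 13326 tested changed between knockout and rescue in edgeR with an adjusted p below 0.05, or 56.8%. Of all tested genes, 29.5% rose (3928 genes) and 27.3% fell (3639 genes), so a single gene's call says little by itself. Here and below, a change given as a number ± SE is rescue minus knockout in log2 units, and a level is in CPM, counts scaled to the size of the library, as mean ± SD over 3 libraries. The rises were small and the falls larger. The median log2 change was 0.42 among genes that rose and -0.66 among genes that fell, and 0.03 over all tested genes. With library totals as the scale, in place of TMM factors, the median over all genes was 0.18 higher. Where that moved the balance of a list named below by over 10 percentage points, the numbers higher and lower under it are given beside the count. A fit with the GC content of transcripts as an offset, added after seeing the data, is given beside some results. Changes of at least 1 log2 unit were upward in 2.07% of tested genes (276) and downward in 8.4% (1120). At 2 log2 units or more the counts were 62 and 335, and at 4 or more 14 and 90. In 8706 genes, 65.3% of those tested, the 3 knockout and the 3 rescue libraries did not overlap. Among 11354 protein-coding genes 3635 rose and 3380 fell, while long noncoding RNAs moved down more often (85 rose and 144 fell of 889) and pseudogenes moved up (189 rose and 70 fell of 848). Pseudogene counts can hold reads of the parent genes.

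**Figure D1:**
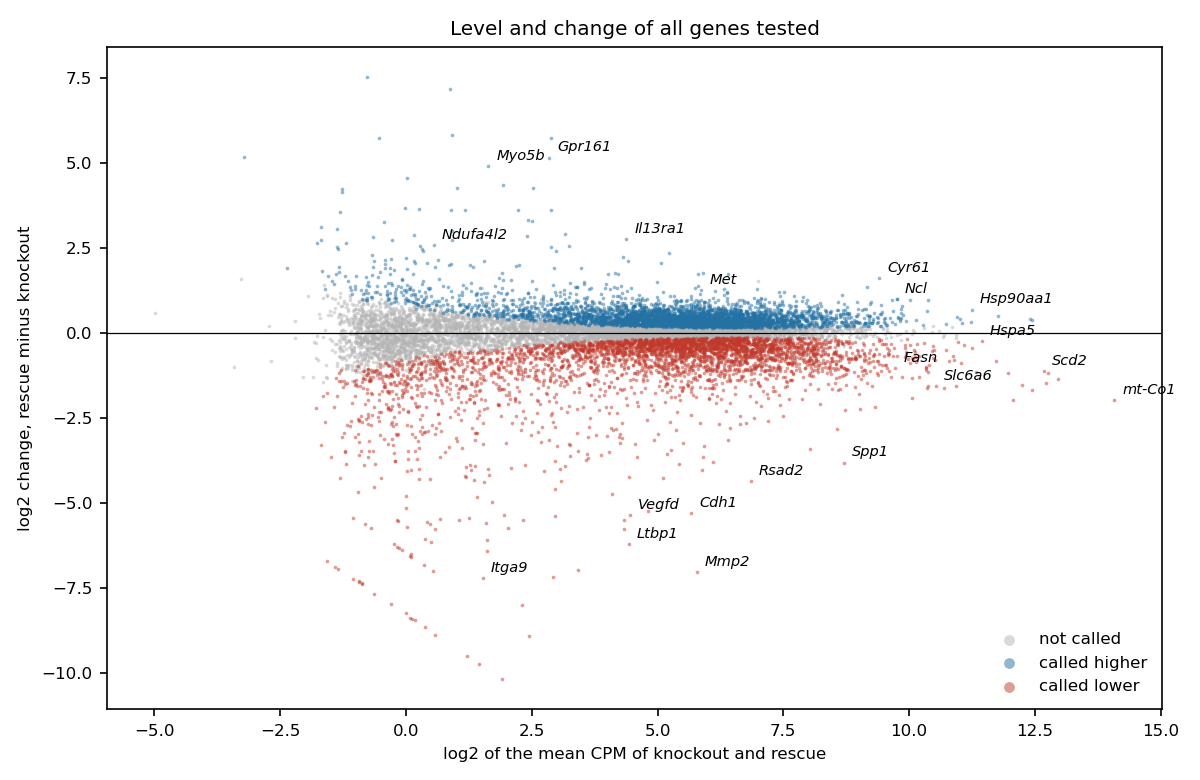
Each point is a tested gene, with log2 of its mean CPM over knockout and rescue on the x axis and its log2 change from knockout to rescue on the y axis. Genes called higher (blue) crowd below 1 log2 unit, while genes called lower (red) reach further from 0; values of genes with no count in a group depend on the model's prior count.

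Rescue did not simply restore the empty-vector level. Of the 276 genes that rose by at least 1 log2 unit, the empty-vector mean lay between the means of knockout and rescue for 176 (63.8%), above the rescue mean for 77 (27.9%) and below the knockout mean for 23 (8.3%). Of the 1120 that fell by at least 1, it lay between for 738 (65.9%), below the rescue mean for 321 (28.7%) and above the knockout mean for 61 (5.4%). Both sets were chosen by the difference between knockout and rescue in these same libraries, which by itself favours an empty-vector mean in between. Rescue against empty vector, which shares the rescue libraries with this comparison, had 6330 genes called, 47.5% of those tested. Where a level is given for empty vector below, it is for this reason a description of position only.

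Interferon-driven genes fell together. Type I interferon binds a receptor of the chains Ifnar1 and Ifnar2, and a complex that holds Irf9 then binds the interferon-stimulated response element in promoters of antiviral genes. Of the signalling list 3 rose and 15 fell of 28 tested, with a median log2 change of -0.43, or 9 and 15 with library totals. Among antiviral effectors 2 rose and 39 fell of 44 tested (median -1.70), and among interferon-inducible GTPases 0 rose and 14 fell of 14 tested (median -3.31). These medians stand beside 0.03 for all genes.

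Irf7, the transcription factor that amplifies the interferon response, had 182, 169 and 168 CPM in the knockout libraries, 26.2, 29 and 25.3 in rescue and 103, 127 and 112 in empty vector. The groups did not overlap and rescue lay lowest, with empty vector between. Its log2 change was -2.69 ± 0.08 (SE; adjusted p = 2.1e-15). Usp18, a protease that removes Isg15 from proteins and damps the receptor, had 57, 58.8 and 56 CPM in the knockout libraries, 7.66, 6.35 and 7.8 in rescue and 26, 34.4 and 33.2 in empty vector, in the same order of groups and with a log2 change of -2.97 ± 0.11 (SE; adjusted p = 3.8e-14). Isg15 itself, a ubiquitin-like modifier, changed by -2.07 ± 0.11, its activating enzyme Uba7 by -1.77 ± 0.13 and the ligase Herc6 by -1.45 ± 0.19. The receptor chains changed less, Ifnar2 by -1.09 ± 0.07 and Ifnar1 by -0.85 ± 0.07. Both genes lie on chromosome 16, whose genes as a whole fell, as described further on. Irf9 changed by -1.15 ± 0.08. The members that rose were Ptpn2, a phosphatase that switches off Jak-Stat signals (0.63 ± 0.09), Socs3 (0.28 ± 0.12) and Trim24 (0.20 ± 0.08); 2 members rose with GC content as an offset or with the replicate block, and no fewer than 1 under any alternative run.

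Of the effectors, Rsad2 (viperin, which makes a chain-terminating nucleotide) had 242, 234 and 184 CPM in the knockout libraries, 10.6, 10.2 and 11.1 in rescue and 48, 43.3 and 50.4 in empty vector. Empty vector lay between the other groups with no overlap, and the log2 change was -4.37 ± 0.11 (SE; adjusted p = 2.8e-14). Trim30a fell from 32.7 ± 1.65 to 1.25 ± 0.241 CPM, Oasl2 from 67.5 ± 5.15 to 5.63 ± 0.578 CPM and Oas2 from 71.1 ± 4.66 to 6.43 ± 0.781 CPM. Oas proteins are double-stranded RNA sensors. Oas, Ifit and Gbp genes lie in clusters of similar copies, among which reads can be split, so single members of these families are uncertain. Apol9a and Apol9b, a pair of close copies, changed by -3.82 ± 0.18 and -4.03 ± 0.16, and the interferon-induced Ifi44 by -3.17 ± 0.11. Lgals3bp, a secreted glycoprotein, was at 702, 662 and 622 CPM in knockout and 102, 90.9 and 86.7 CPM in rescue and its knockout and rescue libraries did not overlap. The members that rose were Samhd1, a nucleotide hydrolase that restricts retroviruses (0.71 ± 0.06), and Apobec3, a cytidine deaminase (0.27 ± 0.08). No change was called for Ifit2 at 0.02 or Ifitm2 at -0.07.

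The interferon-inducible GTPases attack the vacuoles of intracellular pathogens. Igtp, an immunity-related GTPase also called Irgm3, had 45.6, 41.5 and 41.2 CPM in the knockout libraries, 4.95, 3.45 and 4.53 in rescue and 12.8, 16.6 and 17.2 in empty vector, with the 3 groups apart and empty vector between. Its log2 change was -3.29 ± 0.13 (SE; adjusted p = 3.2e-13). Gbp3 fell from 16.8 ± 2.52 to 1.12 ± 0.149 CPM, Gbp7 from 14.6 ± 0.621 to 1.44 ± 0.253 CPM, Irgm2 from 27.4 ± 2.73 to 5.29 ± 0.298 CPM and Irgm1 from 68.7 ± 3.19 to 21.2 ± 0.913 CPM. For Irgm1 and Irgm2 the knockout and empty-vector libraries overlapped, so there rescue alone stood apart. The other 9 tested members, all but Ifi47 below 5 CPM in knockout, changed by -0.86 (Ifi47) to -4.22 (Gbp2b). Because the members lie in few clusters and share sequence, their number does not count independent genes.

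Promoter sequence was read for these lists. The core of the interferon-stimulated response element, GAAA, any 2 bases and GAAA again, was searched on both strands in the 250 bases before the start in the RefSeq promoters of GRCm38.p6, which matched 8968 of the 11354 tested protein-coding genes. It stood in 9 of 10 matched GTPases (90.0%), 11 of 33 antiviral effectors (33.3%), 4 of 24 signalling genes (16.7%) and 3 of 19 genes of the class I list (15.8%), against 280 of all 8968 (3.12%). Of genes called lower 3.83% held it, of genes called higher 2.77% and of genes not called 2.88%. A gene with overlapping matches counted once. The GTPase stretches are shown because this list had the lowest median of the 69 lists. Each is written on the strand of its gene, with matches in capitals and up to 12 bases either side in lower case, and a match on the opposite strand reads TTTC, any 2 bases and TTTC.
Gbp2: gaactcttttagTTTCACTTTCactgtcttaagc
Gbp2b: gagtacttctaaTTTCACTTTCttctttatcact
Gbp3: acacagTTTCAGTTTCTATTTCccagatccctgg
Gbp7: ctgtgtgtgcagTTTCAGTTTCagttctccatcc
Igtp: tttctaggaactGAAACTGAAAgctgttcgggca
Irgm1: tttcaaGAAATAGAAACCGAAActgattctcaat
Irgm2: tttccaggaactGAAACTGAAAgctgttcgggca
Tgtp1: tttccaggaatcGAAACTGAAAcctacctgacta
Tgtp2: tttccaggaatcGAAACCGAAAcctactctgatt
The Igtp stretch lies at chr11:58199510-58199543 on the plus strand, and that of Irgm2 at chr11:58214901-58214934 on the plus strand; the lower-case bases after the capitals are the same in both. The Gbp3 stretch lies at chr3:142559993-142560026 on the plus strand. Among effectors, the stretches of Rsad2 (chr12:26456551-26456584 on the minus strand) and Trim30a (chr7:104465208-104465241 on the minus strand), which fell, and of Apobec3 (chr15:79892256-79892289 on the plus strand) and Ifitm2 (chr7:140955986-140956019 on the minus strand), which did not fall, are given for contrast.
Rsad2: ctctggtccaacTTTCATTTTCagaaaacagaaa
Trim30a: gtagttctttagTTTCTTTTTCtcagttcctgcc
Apobec3: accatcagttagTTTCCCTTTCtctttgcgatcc
Ifitm2: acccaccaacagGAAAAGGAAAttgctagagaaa
A match describes letters only. It was present in effectors that fell and in effectors that did not.

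Sensors of nucleic acid fell with the effectors. Of that list 3 rose and 16 fell of 26 tested (median -0.75), or 7 and 14 with library totals. Ripk3, a kinase of necroptosis that acts with the sensor Zbp1, had 6.74, 8.26 and 9.19 CPM in the knockout libraries, 0.249, 0.11 and 0 in rescue and 0.843, 1.29 and 1.56 in empty vector. Knockout stood far above the other groups, and rescue lay below empty vector without overlap. Its log2 change was -5.76 ± 0.37 (SE; adjusted p = 1.2e-10). Ddx60 fell from 11.6 ± 1.57 to 1.24 ± 0.119 CPM, Tlr3, the endosomal double-stranded RNA receptor, from 23.9 ± 2.22 to 7.14 ± 0.471 CPM, and Ifi204, a DNA sensor, from 52.4 ± 2.21 to 16.1 ± 0.692 CPM. The cytosolic RNA sensors Ddx58 (RIG-I) and Ifih1 (MDA5) changed by -1.51 ± 0.09 and -1.32 ± 0.10, and Tmem173 (STING), the adaptor of cytosolic DNA sensing, by -1.25 ± 0.11. Mavs, the mitochondrial adaptor of RIG-I and MDA5, was not called at 0.16 ± 0.07 (adjusted p = 0.07). Tbk1, the kinase shared by both routes, rose by 0.40 ± 0.09, and Mlkl, the effector of necroptosis, by 0.38 ± 0.10.

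Genes of class I antigen presentation fell while the constitutive proteasome rose. Of the class I list 0 rose and 21 fell of 23 tested (median -1.02), and of constitutive proteasome subunits 26 rose and 1 fell of 34 tested (median 0.33). H2-T23, a non-classical class I molecule, had 80.5, 79.8 and 79.6 CPM in the knockout libraries, 4.92, 6.68 and 5.09 in rescue and 18.5, 22.9 and 19.9 in empty vector, 3 groups without overlap. Its log2 change was -3.86 ± 0.10 (SE; adjusted p = 8.3e-16). Tapbp, which loads peptide onto class I, fell from 699 ± 28.6 to 143 ± 12.8 CPM, to a rescue range that overlapped empty vector. The peptide transporter Tap1 fell from 141 ± 9.64 to 33.4 ± 2.03 CPM, the trimming peptidase Erap1 from 93.5 ± 7.76 to 30.2 ± 3.49 CPM and the immunoproteasome subunit Psmb8 from 65.4 ± 2.9 to 21.7 ± 1.92 CPM. The light chain B2m changed by -0.85 ± 0.07. H2 genes are close copies of each other, and their counts can be shared. In contrast, Psmc6, an ATPase of the 19S cap, had 216, 207 and 214 CPM in the knockout libraries, 370.4, 400.1 and 402 in rescue and 336, 334 and 336 in empty vector, with rescue highest and empty vector between. Psmc6 rose by 0.88 ± 0.06 (SE; adjusted p = 3.2e-10). Psmc3 rose from 215 ± 11.2 to 332 ± 7.52 CPM, Psmd4 from 130.5 ± 4.29 to 202 ± 6.25 CPM and Psma4 from 85 ± 3.88 to 127 ± 1.31 CPM. The single subunit that fell was Psma5, on chromosome 3 (-0.42 ± 0.06). Of ligands that immune cells read, 0 rose and 13 fell of 16 tested (median -0.60), or 2 and 11 with library totals. Cd47, the signal against phagocytosis, fell from 146 ± 4.57 to 60.4 ± 1.78 CPM, and Cd274, which encodes PD-L1, changed by -0.68 ± 0.06. Cd276 fell from 21.6 ± 2.14 to 5.45 ± 0.504 CPM and Cd40 from 46.1 ± 3.02 to 23.8 ± 2.08 CPM. Empty vector stood above knockout for Cd40 and overlapped knockout for Cd47.

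The 5 tested leukocyte markers moved with these lists. Cd68, Cd14, Lyz2, Csf1r and Cd79a all fell. The summed level of the 18 markers was 279 to 301 CPM in knockout, 53.5 to 57.1 in rescue and 91 to 95.4 in empty vector. Cd68, a lysosomal membrane protein, made up most of it at 208, 213 and 194 CPM in the knockout libraries, 33.6, 34.6 and 39.5 in rescue and 72.2, 79.1 and 77.6 in empty vector. The 3 groups did not overlap, and the log2 change was -2.52 ± 0.07 (SE; adjusted p = 1.1e-15). Cd14 fell from 70.2 ± 2.7 to 13.8 ± 1.23 CPM and Lyz2 from 7.49 ± 1.0 to 1.15 ± 0.275 CPM. Endothelial and fibroblast markers summed to 7.52 to 8.33 CPM in knockout, 4.0 to 5.45 in rescue and 2.13 to 3.15 in empty vector, and Kdr and Lum had no count. The part of other cells in the fall of immune genes was not tested.

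**Figure D2:**
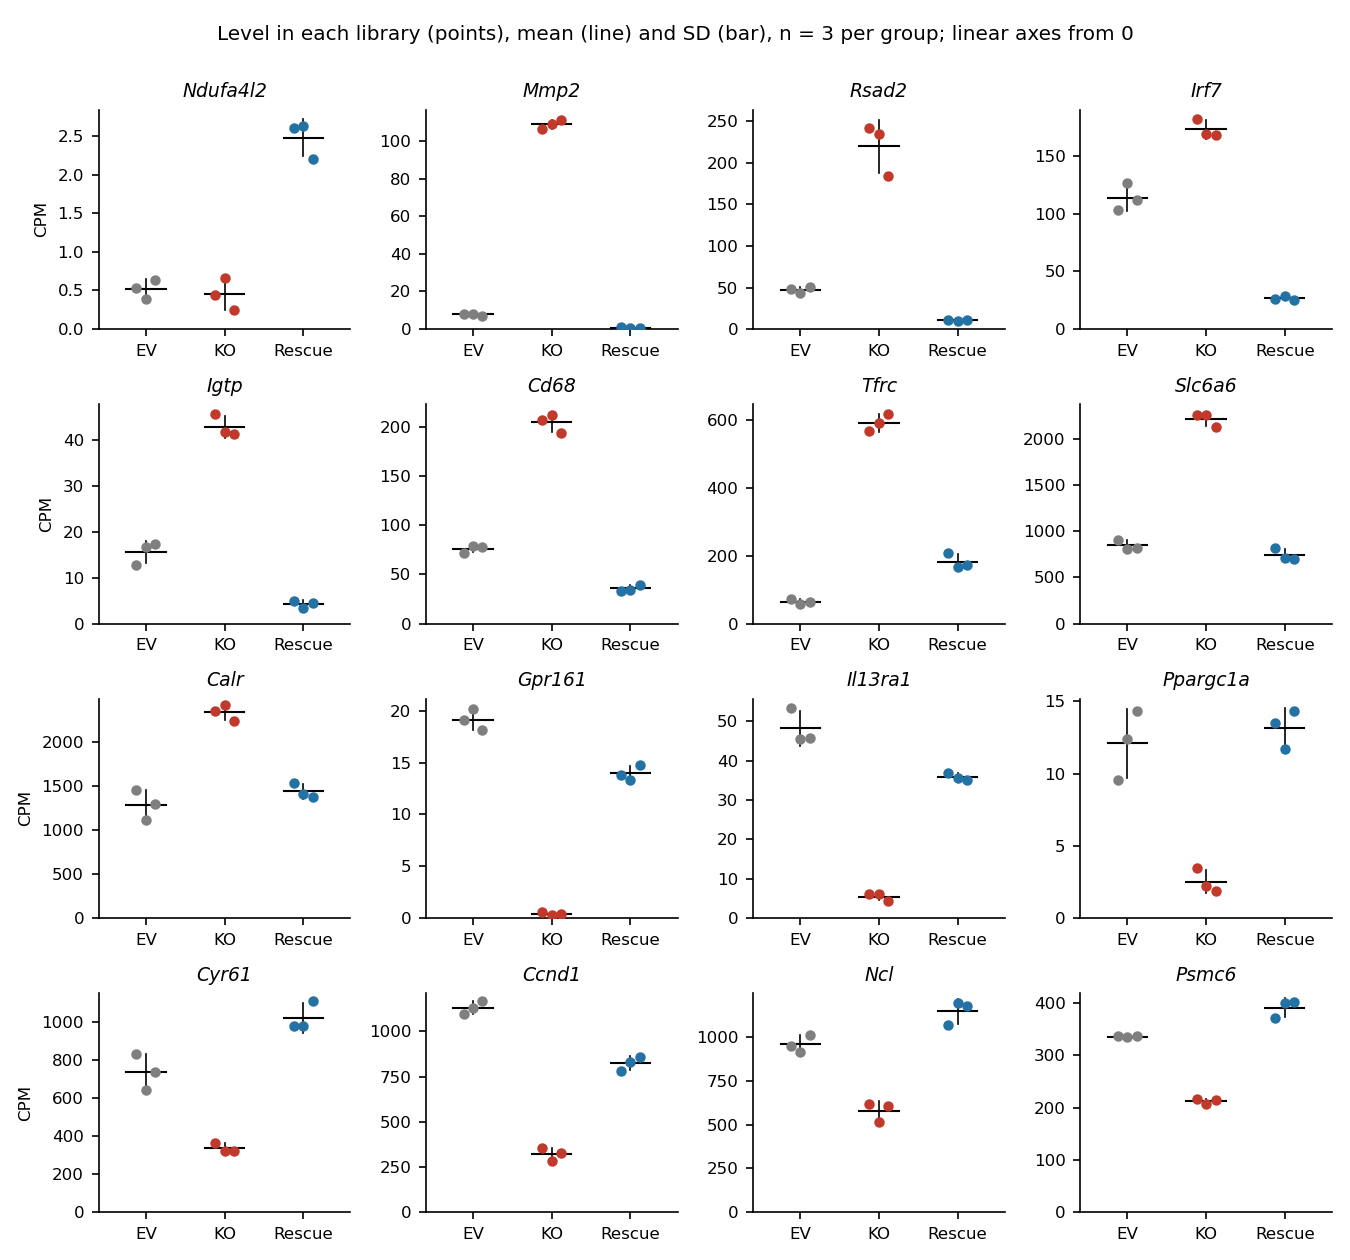
CPM of 16 genes in each library (points) with the group mean (line) and SD (bar, n = 3) on linear axes from 0. Ndufa4l2 was higher in rescue alone, and interferon and lysosomal genes ran from knockout down to rescue. Rescue overlapped empty vector only for Slc6a6, Calr and Ppargc1a.

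Lysosomal genes fell almost as a whole. Of the list 3 rose and 45 fell of 51 tested (median -1.05), and its summed level was 29970.0 to 31590.0 CPM in knockout, 14330.0 to 15220.0 in rescue and 16480.0 to 19340.0 in empty vector. Grn, which encodes progranulin, a lysosomal and secreted protein, had 2581, 2576 and 2386 CPM in the knockout libraries, 837, 794 and 802 in rescue and 1202, 942 and 986 in empty vector. Rescue was lowest, empty vector lay between, and the log2 change was -1.63 ± 0.09 (SE; adjusted p = 9.7e-12). Tpp1, a peptidase mutated in a neuronal storage disease, fell from 279.9 ± 5.57 to 91.7 ± 13.1 CPM, with empty vector below rescue. Sgsh, a heparan sulfatase, fell from 8.82 ± 2.05 to 1.49 ± 0.419 CPM and Ctso, a cathepsin, from 16.4 ± 1.54 to 5.2 ± 0.619 CPM. The cathepsins Ctsb and Ctsa changed by -1.33 ± 0.10 and -1.36 ± 0.07. The members that rose were Ids (0.27 ± 0.08) and the transcription factors Tfeb (0.55 ± 0.07) and Mitf (0.70 ± 0.28), which drive lysosomal genes, while their relative Tfe3 was at -0.04 and was not called. Only 1 member of the list was called higher with GC content as an offset, and 2 with the replicate block. The V-ATPase is the proton pump that acidifies lysosomes. Of its subunits 1 rose and 10 fell of 19 tested (median -0.23), and with library totals as the scale 6 rose and 7 fell. Most of the falls named here were in the membrane sector and its accessory proteins, with Atp6ap1 from 317 ± 7.62 to 175 ± 11.5 CPM, Atp6v0a1 from 336 ± 39 to 191 ± 6.73 CPM and Atp6v0c from 16.3 ± 0.99 to 9.13 ± 0.286 CPM, whereas in the soluble sector Atp6v1a changed by -0.24 ± 0.07 and Atp6v1c1 rose by 0.26 ± 0.06.

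TCACGTGA, the core of the CLEAR element that Tfeb and Mitf bind, is a palindrome and reads the same on both strands. It stood in the 250 bases before the start of 4 of 41 matched lysosomal genes (9.76%) and 1 of 14 V-ATPase genes (7.14%, Atp6v1a), against 164 of 8968 genes (1.83%). The share was 1.71% among genes called lower, 1.83% among genes called higher and 1.92% among those not called. Most lysosomal genes that fell therefore held no such letters in this window. The 4 lysosomal stretches follow, with the match in capitals; that of Ctsa lies at chr2:164833748-164833772 on the plus strand and that of Ctsd at chr7:142387907-142387938 on the minus strand.
Ctsa: atgagcaaactgTCACGTGAtgcag
Ctsd: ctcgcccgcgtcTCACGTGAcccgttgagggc
Gla: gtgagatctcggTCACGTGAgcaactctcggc
Mcoln1: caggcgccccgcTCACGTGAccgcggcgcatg
The genes changed by -1.36 ± 0.07 (Ctsa), -1.11 ± 0.09 (Ctsd), -1.09 ± 0.09 (Gla) and -0.52 ± 0.07 (Mcoln1). Autophagy core genes were split: 9 rose and 13 fell of 39 tested (median -0.03), and 18 rose and 11 fell, with a median of 0.16, when library totals were the scale. Tex264, a receptor for autophagy of the endoplasmic reticulum, fell from 81.3 ± 2.16 to 33.4 ± 1.24 CPM, Atg9a from 94.5 ± 7.68 to 53.8 ± 4.47 CPM and Pik3r4 from 81.3 ± 5.99 to 46 ± 1.77 CPM, while Atg16l2 rose from 17.8 ± 0.542 to 32.3 ± 2.91 CPM.

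Chaperones of the endoplasmic reticulum fell and those of the cytosol rose. The unfolded protein response raises folding factors of the endoplasmic reticulum through the sensors Ern1, Eif2ak3 and Atf6. Of that list 1 rose and 25 fell of 30 tested (median -0.46), and of cytosolic chaperones 24 rose and 4 fell of 35 tested (median 0.48). The summed level of the endoplasmic reticulum list was 18090 to 19420 CPM in knockout, 14590 to 15280 in rescue and 17430 to 19380 in empty vector. Summed in this way, knockout and empty vector overlapped and rescue lay below both. Calr, a lectin chaperone, had 2344, 2418 and 2240.0 CPM in the knockout libraries, 1537, 1403 and 1377 in rescue and 1451, 1112 and 1297 in empty vector. Rescue and empty vector overlapped and knockout lay above both, and the log2 change was -0.70 ± 0.09 (SE; adjusted p = 1.6e-06). Dnajb11, a cochaperone of Hspa5, fell from 410.4 ± 14.7 to 222 ± 14.7 CPM, Derl1, of the retrotranslocation machinery, from 589.9 ± 7.32 to 342 ± 6.35 CPM, Syvn1, its ubiquitin ligase, from 84.6 ± 2.86 to 48.8 ± 3.86 CPM, and Dnajc3 from 210.1 ± 13.3 to 130.5 ± 9.6 CPM. Hspa5 (BiP) changed by only -0.25 ± 0.08 and Hsp90b1 was at 0.02 and was not called. The member that rose was Ero1l (0.28 ± 0.10), an oxidase that is also a hypoxia target, a call that was lost with GC content as an offset. In the cytosol, Hsp90aa1 had 1916, 1780.0 and 1894 CPM in the knockout libraries, 3012, 3045 and 2869 in rescue and 1424, 1150.0 and 1251 in empty vector, with rescue above knockout and knockout above empty vector. It rose by 0.68 ± 0.08 (SE; adjusted p = 1.0e-06). Cct6a, a subunit of the TRiC ring, rose from 203 ± 5.01 to 348 ± 25.7 CPM, the cochaperone Stip1 from 220.3 ± 11.4 to 365 ± 2.61 CPM and Fkbp4 from 320.3 ± 13.8 to 505 ± 25.2 CPM. The heat-inducible Hspa1b changed by -0.53 ± 0.08, and its cochaperone Bag3 by -0.30 ± 0.06. Hspa1a and Hspa1b are near-identical copies.

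The ER stress response element, CCAAT, any 9 bases and CCACG, was found on either strand in the same windows of 8 of 24 matched genes of the endoplasmic reticulum list (33.3%), against 15 of 8968 genes (0.167%). Of genes called lower 0.418% held it (11 genes), of genes called higher 0.0691% (2 genes) and of genes not called 0.0581% (2 genes). These few genes include those of the list itself, so the shares do not stand apart from it. The 8 stretches are shown since they make up most of the 15 found, with the match in capitals on either strand.
Calr: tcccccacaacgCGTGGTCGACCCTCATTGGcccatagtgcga
Canx: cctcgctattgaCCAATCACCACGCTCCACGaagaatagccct
Creld2: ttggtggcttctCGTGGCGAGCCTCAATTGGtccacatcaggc
Dnajc3: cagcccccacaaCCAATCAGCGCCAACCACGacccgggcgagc
Hsp90b1: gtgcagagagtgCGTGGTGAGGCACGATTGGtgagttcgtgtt
Hspa5: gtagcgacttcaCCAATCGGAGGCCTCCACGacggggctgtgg
Pdia6: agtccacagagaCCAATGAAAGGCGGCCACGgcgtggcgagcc
Syvn1: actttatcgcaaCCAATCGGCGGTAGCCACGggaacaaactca
The Calr stretch lies at chr8:84847063-84847105 on the minus strand and the Hspa5 stretch at chr2:34772013-34772055 on the plus strand. Changes of these 8 genes ran from -0.79 (Syvn1) through -0.70 (Calr), -0.68 (Dnajc3), -0.63 (Canx), -0.45 (Pdia6), -0.25 (Hspa5) and -0.18 (Creld2) to 0.02 (Hsp90b1, not called).

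Other arms of the stress response went different ways. Of genes of the integrated stress response and serine metabolism 11 rose and 11 fell of 33 tested (median 0.07), or 18 and 10 with library totals and 16 and 10 with GC content as an offset. Atf4, the transcription factor of that response, rose from 550.4 ± 15.9 to 1078 ± 103 CPM, Ppp1r15a, the phosphatase subunit that ends it, rose from 57.4 ± 2.61 to 109.7 ± 30.8 CPM, and Psat1, of serine synthesis, rose by 0.66 ± 0.07. Its 5 amino acid carriers, Slc1a4, Slc1a5, Slc7a1, Slc7a5 and Slc7a11, fell, as did Slc3a2, the chain that Slc7a5 and Slc7a11 pair with. Of amino acid transporters in all, 0 rose and 22 fell of 23 tested (median -1.0). Slc6a6, the taurine transporter, had 2264, 2264 and 2133 CPM in the knockout libraries, 817, 714 and 701 in rescue and 909.6, 812 and 821 in empty vector. Knockout lay above both other groups, which overlapped, and the log2 change was -1.58 ± 0.08 (SE; adjusted p = 4.0e-12). Slc1a5, a glutamine transporter, fell from 639 ± 15.9 to 219 ± 16.5 CPM, Slc38a1 from 121 ± 12.3 to 31.4 ± 2.71 CPM, Slc43a2 from 103 ± 3.08 to 33.1 ± 4.17 CPM and the cystine importer Slc7a11 from 109 ± 7.9 to 47.6 ± 3.05 CPM. Slc7a5 and Slc3a2, the chains of the large neutral amino acid exchanger, changed by -0.44 ± 0.10 and -0.38 ± 0.08. Slc38a4, below 2 CPM, was the member not called (0.36).

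Lipid genes fell with the transporters. Of fatty acid synthesis and storage genes 2 rose and 25 fell of 34 tested (median -0.58), or 7 and 23 with library totals, and of cholesterol genes 2 rose and 19 fell of 31 tested (median -0.44), or 6 and 16 with library totals. Scd1, a desaturase, had 3021, 3034 and 2766 CPM in the knockout libraries, 1010.0, 983 and 990.5 in rescue and 1378, 973 and 1060.0 in empty vector, with rescue overlapping empty vector. It changed by -1.56 ± 0.10 (SE; adjusted p = 4.5e-10). Scd2 fell from 8997 ± 629.7 to 4073 ± 223 CPM, Dgat1, which closes triglyceride synthesis, from 184 ± 7.41 to 78 ± 3.69 CPM, and the fatty acid importer Cd36 from 12.5 ± 0.961 to 2.29 ± 0.21 CPM. Srebf1, the regulator of this programme, fell from 925 ± 76.9 to 309 ± 28.2 CPM and the sterol enzymes Ebp from 113 ± 3.39 to 46 ± 3.02 CPM and Dhcr7 from 565 ± 21.1 to 273 ± 5.79 CPM. Within cholesterol synthesis the list was uneven: Idi1 rose by 0.44 ± 0.10, and Hmgcs1, Mvk, Pmvk, Fdft1 and Acat2 were among those not called. In the fatty acid list Acly (0.21 ± 0.07) and Me1 (0.21 ± 0.07) rose. Of ABC transporters 3 rose and 19 fell of 26 tested (median -0.81). Abca1, which exports cholesterol, fell from 251 ± 18.9 to 41 ± 4.08 CPM, Abcc4 from 388 ± 27.1 to 137 ± 7.08 CPM and Abcc5 from 263 ± 19.6 to 107 ± 7.81 CPM. The members that rose, Abce1, Abcf1 and Abcf2, carry the family's ATPase domains but act on ribosomes and not in membranes. Of fatty acid oxidation genes 10 rose and 10 fell of 32 tested (median 0.08), shares close to those of all genes, or 16 and 7 with library totals, with Cpt1a falling from 128 ± 3.2 to 82 ± 3.07 CPM and Etfa rising from 90.7 ± 1.4 to 132 ± 9.67 CPM.

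**Figure D3:**
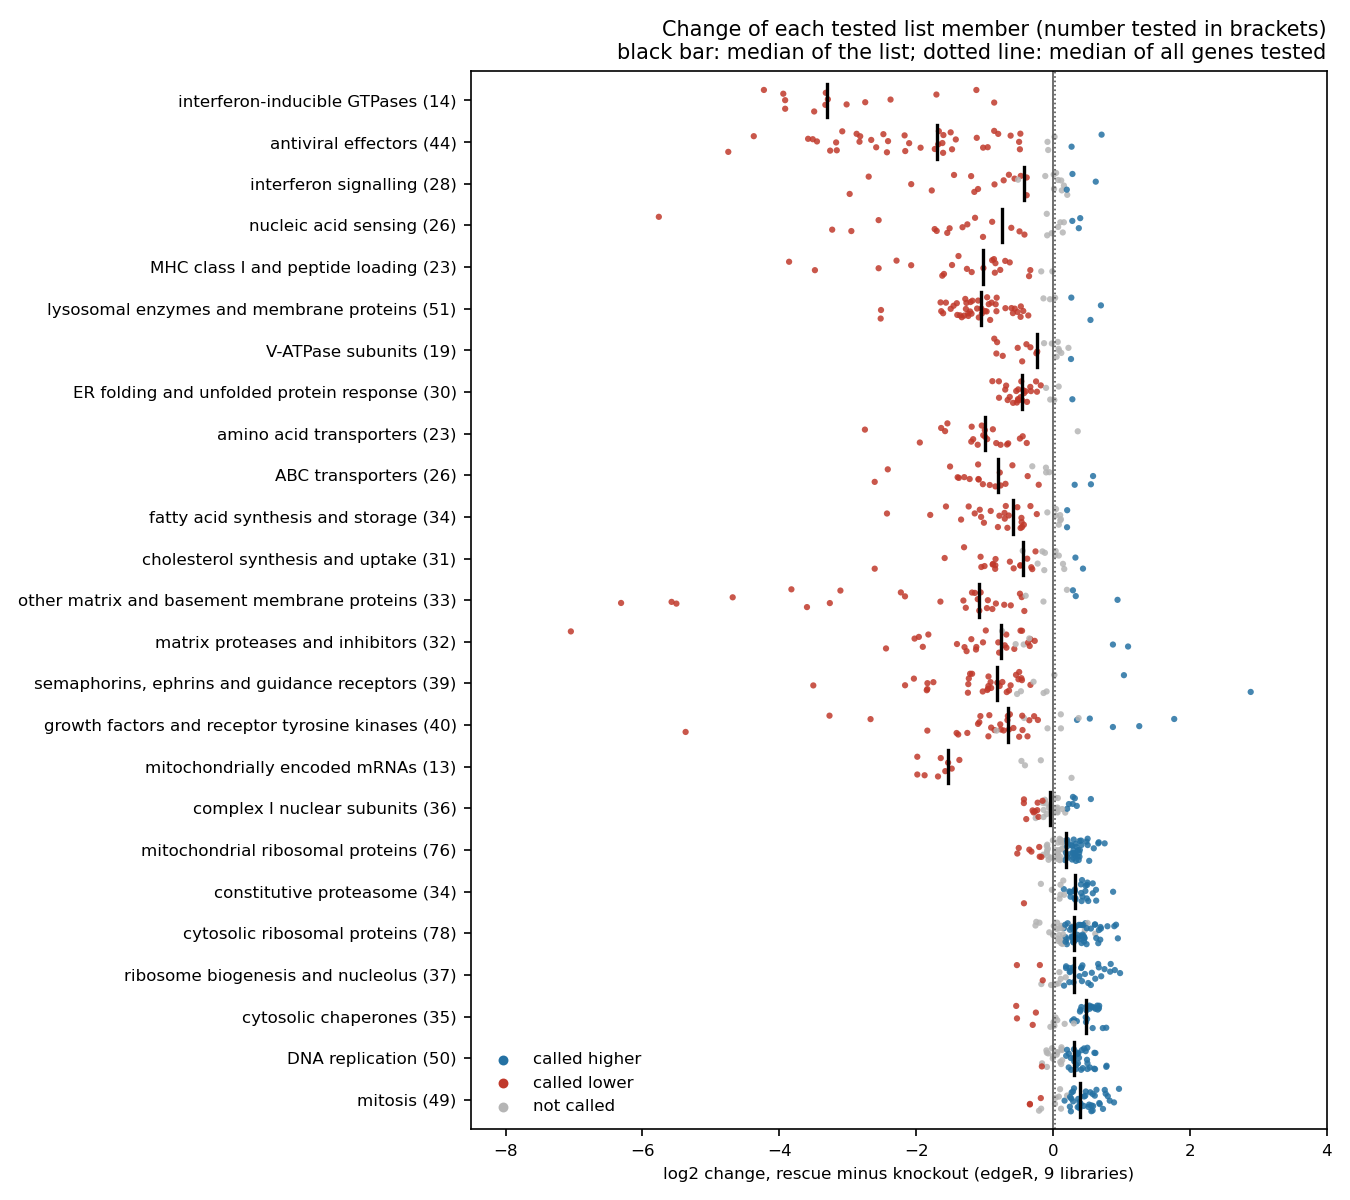
Each point is a tested member of a gene list, placed by its log2 change from knockout to rescue, with the list's median as a black bar and the median of all genes (0.03) dotted. Interferon, lysosomal, secretory, transport, lipid and matrix lists lie left of 0, and proteasome, ribosome, cytosolic chaperone, replication and mitosis lists lie right of it by a smaller distance.

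Iron and detoxification genes gave single large changes in mixed lists. Tfrc, the transferrin receptor, had 565, 590.4 and 618 CPM in the knockout libraries, 208, 166 and 173 in rescue and 73.1, 58.5 and 62 in empty vector. Rescue lay between knockout and empty vector and overlapped neither, and the log2 change was -1.70 ± 0.09 (SE; adjusted p = 3.5e-11). The ferroxidase Heph fell from 85.3 ± 6.63 to 22.8 ± 0.919 CPM and the ferrireductase Steap3 from 247 ± 9.75 to 75.4 ± 3.37 CPM. In the list of iron and heme genes 9 rose and 11 fell of 36 tested, and with library totals as the scale 18 rose and 7 fell. Of glutathione S-transferases 0 rose and 12 fell of 22 tested (median -0.49), or 3 and 11 with library totals, with Gsta1 falling from 22.4 ± 5.84 to 2.0 ± 0.817 CPM and Gsta3 from 79.4 ± 3.64 to 33.6 ± 1.9 CPM; the Gsta and Gstm genes are close copies. Gstm5 (-1.03 ± 0.16) lies at 100 to 110 Mb on chromosome 3, where most tested genes fell, as described further on. Of NRF2-linked genes 11 rose and 20 fell of 39 tested (median -0.21), and with library totals 17 rose and 13 fell. Ephx1 fell from 846 ± 47.1 to 304 ± 4.87 CPM and the secreted peroxidase Gpx3 from 1847 ± 76.8 to 823 ± 27 CPM, while Hmox1 rose by 0.58 ± 0.07.

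Matrix, adhesion and secreted genes were among the largest falls. Of collagens 2 rose and 10 fell of 18 tested (median -0.86), of other matrix proteins 3 rose and 27 fell of 33 tested (median -1.08), of matrix proteases and inhibitors 2 rose and 26 fell of 32 tested (median -0.77) and of integrins and related receptors 4 rose and 17 fell of 26 tested (median -0.70). Mmp2, a gelatinase, had 107, 109 and 111 CPM in the knockout libraries, 0.855, 0.822 and 0.755 in rescue and 8.12, 7.97 and 7.18 in empty vector. All 3 groups were apart, with empty vector between, and the log2 change was -7.05 ± 0.11 (SE; adjusted p = 7.0e-20). Spp1 (osteopontin) had 775, 787 and 779 CPM in the knockout libraries, 55.9, 51.7 and 57.9 in rescue and 143, 107 and 118 in empty vector, in the same order, with a log2 change of -3.82 ± 0.09 (SE; adjusted p = 8.3e-16). The elastic fibre protein Fbln2 fell from 82 ± 8.33 to 8.42 ± 1.5 CPM, Ecm1 from 35.1 ± 3.33 to 4.11 ± 0.309 CPM and Ogn from 27.3 ± 2.9 to 2.24 ± 0.43 CPM. Col6a1 fell from 15.2 ± 1.36 to 0.353 ± 0.173 CPM and Col12a1 from 798 ± 38.1 to 226 ± 19.6 CPM. Nid2 (0.33 ± 0.10) and Efemp1 (0.94 ± 0.07) rose. Plat, a plasminogen activator, fell from 303 ± 21.8 to 55.7 ± 4.06 CPM and Mmp10 from 6.14 ± 0.655 to 1.77 ± 0.24 CPM, whereas Mme (neprilysin), a cell-surface peptidase of the renal brush border, rose from 260.4 ± 13.2 to 557 ± 24.3 CPM.

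Among integrins, Itgb5 had 2012, 2097 and 1828 CPM in the knockout libraries, 646, 658 and 604 in rescue and 628, 479 and 484 in empty vector, with rescue and empty vector overlapping below knockout and a log2 change of -1.64 ± 0.10 (SE; adjusted p = 7.9e-11). Itga9 was near 0 outside knockout (5.72, 5.95 and 5.52 CPM in knockout and 0.0356, 0.0548 and 0 CPM in rescue). In the other direction, Itgb6, an epithelial subunit whose integrin activates TGF-beta, rose from 0.966 ± 0.204 to 9.82 ± 0.757 CPM. Syndecan-1 (Sdc1) fell from 1321 ± 28.1 to 530.0 ± 27.8 CPM. Cdh1, which encodes E-cadherin, had 96.2, 109 and 93.4 CPM in the knockout libraries, 2.64, 2.79 and 1.95 in rescue and 15.4, 9.97 and 10.3 in empty vector. It was lowest in rescue and did not overlap between groups. Its log2 change was -5.31 ± 0.17 (SE; adjusted p = 1.1e-10). The list of cadherins, junction proteins and keratins was split otherwise (6 rose and 10 fell of 24 tested, median -0.09; 9 and 7 with library totals, where the median turned to 0.10), with the tight-junction proteins Tjp3 and Cgn rising by 0.86 ± 0.13 and 0.68 ± 0.08. Of mesenchymal and contractile genes 6 rose and 8 fell of 20 tested: Cnn2 rose from 93.1 ± 2.63 to 187 ± 14.1 CPM and Tpm1 by 0.96 ± 0.07, while Eng fell from 288 ± 13.8 to 125 ± 7.94 CPM and Vim changed by -0.51 ± 0.07. With library totals as the scale 8 of them rose and 8 fell.

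Guidance and growth factor lists fell too. Of semaphorins, ephrins and their receptors 2 rose and 31 fell of 39 tested (median -0.81). Nrp1, a shared receptor of semaphorins and VEGF, fell from 82 ± 2.7 to 22.9 ± 0.798 CPM, Sema3f from 56.3 ± 4.61 to 16.6 ± 2.46 CPM and Sema4d from 39.9 ± 7.15 to 8.79 ± 0.707 CPM. Sema3e stood out upwards at 1.78, 2.97 and 1.85 CPM in the knockout libraries, 15.6, 16.3 and 15.3 in rescue and 11, 11.4 and 10.3 in empty vector, with knockout lowest and empty vector between, and rose by 2.89 ± 0.15 (SE; adjusted p = 7.2e-12). Of growth factors and receptor tyrosine kinases 5 rose and 29 fell of 40 tested (median -0.65). Vegfd, a lymphangiogenic factor, had 38.2, 46.2 and 43.6 CPM in the knockout libraries, 1.1, 1.04 and 0.881 in rescue and 1.24, 0.322 and 0.562 in empty vector. It was high in knockout alone, with a log2 change of -5.37 ± 0.19 (SE; adjusted p = 3.7e-13). Angptl2 fell from 187 ± 12.1 to 29.3 ± 3.13 CPM and Igfbp5 from 17.1 ± 1.17 to 1.68 ± 0.641 CPM, whereas Vegfa was not called (-0.08 ± 0.07, adjusted p = 0.35). Those that rose were Met, the receptor of hepatocyte growth factor (1.26 ± 0.08), Nrg1 (0.88 ± 0.08), Pdgfb (0.54 ± 0.06), Hbegf (0.35 ± 0.08) and Fgfr2, at about 1 CPM in rescue (1.77 ± 0.46).

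Cytokine genes were mixed: 9 rose and 25 fell of 44 tested (median -0.48). Il13ra1, a receptor chain for interleukins 4 and 13, had 6.04, 6.03 and 4.3 CPM in the knockout libraries, 37, 35.6 and 35.2 in rescue and 53.4, 45.6 and 45.7 in empty vector. Knockout was low, empty vector was highest, and no groups overlapped. Il13ra1 rose by 2.76 ± 0.11 (SE; adjusted p = 2.1e-13), while Il4ra, the other chain of that receptor, fell from 34.3 ± 2.28 to 7.76 ± 1.02 CPM. The monocyte chemoattractant Ccl2 rose from 9.84 ± 1.1 to 25.1 ± 1.23 CPM, and the interferon-induced Cxcl10 changed by -1.45 ± 0.18. Tnfrsf1b fell from 56.7 ± 1.52 to 13.8 ± 0.598 CPM. Of complement and coagulation genes 3 rose and 13 fell of 22 tested (median -0.65), or 5 and 12 with library totals. C1ra fell from 64.4 ± 2.53 to 17.4 ± 0.886 CPM and C2 from 23.8 ± 2.0 to 6.68 ± 0.168 CPM. F3 (tissue factor), the trigger of coagulation, rose from 4.74 ± 1.43 to 17.7 ± 1.05 CPM. In the NF-kappa-B list 7 rose and 6 fell of 36 tested, or 36.1% called, or 16 and 3 with library totals and 12 and 8 with GC content as an offset. Its largest rises were Traf5, a signal adaptor, from 0.632 ± 0.382 to 8.71 ± 1.4 CPM, and Icam1, an adhesion molecule for leukocytes, from 2.83 ± 0.714 to 16.2 ± 0.674 CPM. Tnfaip3, an inhibitor of the pathway, rose from 15.3 ± 1.09 to 25.9 ± 2.96 CPM.

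The respiratory chain has a mitochondrially encoded and a nuclear part. Of the 13 mitochondrial mRNAs 9 fell and 0 rose (median -1.53), and of all 26 tested genes of the mitochondrial genome 18 fell and 2 rose. The abundant mt-Nd4 had 7776, 7076 and 5535 CPM in the knockout libraries, 1819, 1761 and 1578 in rescue and 2038, 1398 and 2149 in empty vector. Rescue overlapped empty vector and knockout lay above both. Its log2 change was -1.98 ± 0.17 (SE; adjusted p = 1.0e-06). mt-Nd5 fell from 8497 ± 1282 to 2651 ± 236 CPM and mt-Co2 from 106 ± 41.6 to 33.6 ± 7.54 CPM. Nuclear copies of mitochondrial DNA can take or lend such reads, and poly(A) selection captures these mRNAs unevenly. These falls follow the mitochondrial share given above, and the part of RNA quality in them was not tested.

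Of nuclear complex I subunits 7 rose and 10 fell of 36 tested, or 47.2% called beside 56.8% of all genes, with a median of -0.05 that turned to 0.14 with library totals as the scale (15 rose and 3 fell). Ndufa8 fell from 124 ± 2.08 to 92.9 ± 6.5 CPM and Ndufs8 from 71.5 ± 2.49 to 54.6 ± 2.33 CPM, while Ndufv3 rose from 29.9 ± 1.66 to 44.1 ± 2.6 CPM and Ndufs1 from 103 ± 4.37 to 132 ± 3.76 CPM. Of complex I assembly factors 7 rose and 1 fell of 16 tested (median 0.15), or 10 and 0 with library totals. Ndufaf2 rose from 7.55 ± 1.1 to 13 ± 1.07 CPM, Ndufaf6 from 15.6 ± 1.36 to 26 ± 1.69 CPM and Tmem70 from 64 ± 3.73 to 87.1 ± 3.8 CPM. Of complexes II and III 9 rose and 3 fell of 22 tested, or 13 and 1 with library totals, with Sdha falling from 254 ± 18.8 to 179.8 ± 6.17 CPM and Uqcrfs1 rising from 76.5 ± 3.78 to 97.7 ± 2.01 CPM. Of complex IV with the Ndufa4 paralogues 6 rose and 9 fell of 28 tested (median -0.09), or 12 and 5 with library totals (median 0.09). Cox6a1 fell from 515 ± 15.5 to 345 ± 15.2 CPM and Cox17, a copper chaperone, from 9.58 ± 1.88 to 5.41 ± 0.193 CPM, while Higd1a, an assembly factor induced by hypoxia, rose from 33.3 ± 0.671 to 54.9 ± 5.22 CPM. Of ATP synthase genes 4 rose and 3 fell of 18 tested, or 38.9% called, or 13 and 1 with library totals and 6 and 2 with GC content as an offset.

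The machinery that builds mitochondria rose modestly. Of mitochondrial ribosomal proteins 40 rose and 7 fell of 76 tested (median 0.19), or 57 and 2 with library totals, and of import genes 17 rose and 1 fell of 32 tested (median 0.20). Mrpl46 rose from 54.5 ± 3.27 to 92.4 ± 5.97 CPM, Mrpl13 from 123 ± 3.25 to 195 ± 8.54 CPM, and Hspa9 (mortalin), the import motor, from 771 ± 47.3 to 1099 ± 71.9 CPM. Ppargc1a, a coactivator that drives mitochondrial biogenesis, had 3.43, 2.23 and 1.9 CPM in the knockout libraries, 13.5, 11.7 and 14.3 in rescue and 9.59, 12.4 and 14.3 in empty vector. The knockout libraries lay below all others, rescue and empty vector overlapped, and the log2 change was 2.41 ± 0.20 (SE; adjusted p = 2.1e-08). Among genes of mitochondrial DNA and RNA, 14 rose and 9 fell of 33 tested, or 19 and 4 with library totals. The mitochondrial RNA polymerase Polrmt fell from 143 ± 2.76 to 92.4 ± 6.41 CPM and the DNA polymerase Polg from 82.6 ± 3.02 to 60.8 ± 4.06 CPM, while Tfam, which packages mitochondrial DNA, rose by 0.32 ± 0.07. The mitophagy receptors Bnip3 and Bnip3l, hypoxia targets, rose from 46.4 ± 13.9 to 112 ± 12.6 CPM and from 94.3 ± 9.6 to 169.8 ± 9.17 CPM, and Pink1 fell from 23.8 ± 1.45 to 16.3 ± 1.5 CPM.

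Glycolytic enzymes rose. Of that list 12 rose and 2 fell of 22 tested (median 0.30). Pfkl, the liver-type phosphofructokinase, had 148, 164 and 151 CPM in the knockout libraries, 331, 322 and 302 in rescue and 208, 147 and 124 in empty vector. Rescue lay above both other groups, which overlapped, and the log2 change was 1.04 ± 0.17 (SE; adjusted p = 0.0011). Pgk1 rose from 584 ± 32.8 to 1155 ± 33.5 CPM, Tpi1 from 505 ± 27.9 to 887 ± 58.2 CPM and Eno2 from 45.1 ± 4.23 to 91.9 ± 2.95 CPM, while the lactate transporter Slc16a1 fell from 1068 ± 69.8 to 489 ± 19.9 CPM. Gapdh ran from 10.6 to 138 CPM over the 9 libraries and was not called at -1.40 ± 1.18 (adjusted p = 0.36); it has many pseudogenes, among which its reads can be lost. Hypoxia-inducible factor targets as listed, Ndufa4l2 among them, were mixed (10 rose and 5 fell of 30 tested, or 15 and 4 with library totals), with a median of 0.08. Pdk1, which holds pyruvate back from the mitochondria, rose from 33 ± 1.55 to 62.3 ± 5.67 CPM and Adm from 80.5 ± 4.54 to 162 ± 10.7 CPM, and Lox, a matrix cross-linking enzyme, fell from 218 ± 7.23 to 48.5 ± 2.37 CPM. In the tricarboxylic acid cycle list 14 rose and 6 fell of 32 tested, or 22 and 4 with library totals. Pcx fell from 86.3 ± 5.32 to 42.5 ± 1.46 CPM and Idh1 from 154 ± 7.76 to 96 ± 5.21 CPM, and Pdk4 rose from 6.5 ± 0.452 to 14.3 ± 0.712 CPM.

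Genes of growth and division rose by small amounts in large numbers. Of cytosolic ribosomal proteins 54 rose and 0 fell of 78 tested (median 0.32), of ribosome biogenesis genes 27 rose and 3 fell of 37 tested (median 0.30), of cytosolic aminoacyl-tRNA synthetases 12 rose and 2 fell of 22 tested and of nucleotide synthesis genes 17 rose and 3 fell of 28 tested. The nucleolar protein Ncl had 617, 516 and 605 CPM in the knockout libraries, 1064, 1193 and 1174 in rescue and 947, 914 and 1012 in empty vector. Knockout was lowest, empty vector between, and the log2 change was 0.98 ± 0.08 (SE; adjusted p = 3.4e-09). Npm1 rose from 269 ± 15.8 to 505 ± 20.4 CPM, Wdr43 from 98.6 ± 7.04 to 177 ± 12.8 CPM and Rpl12 from 424 ± 5.13 to 789 ± 49 CPM. Many ribosomal proteins have pseudogenes that share their reads. Myc, which drives this programme, rose by 0.66 ± 0.08, and its antagonist Mnt fell from 40.1 ± 3.11 to 27.6 ± 3.02 CPM. Prps1, which makes the sugar phosphate of nucleotides, rose from 44 ± 1.5 to 86.5 ± 5.28 CPM and Paics from 166 ± 9.62 to 254 ± 7.26 CPM.

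Of DNA replication genes 32 rose and 1 fell of 50 tested (median 0.30), of mitosis genes 38 rose and 3 fell of 49 tested (median 0.39) and of DNA repair genes 24 rose and 4 fell of 46 tested. Ccnd1, the cyclin that opens the cell cycle, had 353, 284 and 327 CPM in the knockout libraries, 781, 831 and 857 in rescue and 1095, 1128 and 1167 in empty vector. Rescue stood between knockout and the higher empty vector, and the log2 change was 1.35 ± 0.08 (SE; adjusted p = 3.2e-11). Mybl2 rose from 69.1 ± 4.43 to 135 ± 1.25 CPM, the centriole kinase Plk4 from 39.3 ± 3.4 to 73.4 ± 2.53 CPM and the primase Prim1 from 40.5 ± 2.82 to 69.7 ± 2.08 CPM. Condensin subunit Smc4 rose from 111 ± 2.44 to 236 ± 6.84 CPM. Proliferation markers were not uniform: Mki67, Foxm1, Plk1 and Cdc20 were not called, and Cenpe (-0.34 ± 0.09) and Ccnf (-0.34 ± 0.07) fell. Of tubulins 8 rose and 1 fell of 15 tested; these too are close copies. Tubb6 rose from 191 ± 2.89 to 321 ± 3.38 CPM, and the neuronal Tubb3, at 2.00 CPM in knockout, changed by -5.72 ± 0.54. Among p53 targets and Bcl2 relatives 12 rose and 8 fell of 33 tested, or 17 and 4 with library totals. The death activators Bmf and Trp53inp1 fell from 5.79 ± 0.073 to 1.3 ± 0.548 CPM and from 114 ± 5.59 to 40.7 ± 1.16 CPM, while Pmaip1 (Noxa) rose from 11.2 ± 0.674 to 23.5 ± 2.11 CPM and Tigar from 35.9 ± 1.29 to 79 ± 5.32 CPM.

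Signalling targets differed by pathway. Of Ccn genes and targets of Yap and Tead 18 rose and 5 fell of 33 tested (median 0.18), or 24 and 3 with library totals. Cyr61 had 366, 321 and 325 CPM in the knockout libraries, 977, 976 and 1111 in rescue and 833, 641 and 736 in empty vector. The order was knockout, empty vector, rescue, with no overlap, and the log2 change was 1.6 ± 0.09 (SE; adjusted p = 5.0e-11). Wisp1, another Ccn gene, rose from 39.4 ± 1.5 to 129 ± 9.82 CPM, Ankrd1 from 73.3 ± 1.04 to 179 ± 13.4 CPM and endothelin Edn1 from 7.11 ± 0.935 to 32.5 ± 3.79 CPM, while Wisp2 fell from 266 ± 15.1 to 75.1 ± 7.1 CPM. Of immediate-early and MAPK feedback genes 18 rose and 10 fell of 43 tested (median 0.20), or 26 and 5 with library totals. The ERK-induced inhibitors Dusp4 and Spry1 rose from 30.7 ± 1.4 to 80.6 ± 8.83 CPM and from 10.4 ± 0.791 to 26 ± 2.49 CPM, and Etv5 went from 15.4 ± 2.56 to 34.3 ± 10.5 CPM (adjusted p = 0.034 by edgeR), a call that was lost with the replicate block, with no filter on low counts and on leaving out any knockout library, rescue library 2 or 3 or empty-vector library 3, whereas Klf2 fell from 5.75 ± 0.741 to 2.55 ± 0.572 CPM and Junb changed by -0.64 ± 0.09.

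In the Hedgehog and cilium list 9 rose and 9 fell of 26 tested, or 14 and 4 with library totals. Gpr161, a ciliary receptor that restrains Hedgehog signalling, had 0.572, 0.248 and 0.337 CPM in the knockout libraries, 13.8, 13.4 and 14.8 in rescue and 19.1, 20.2 and 18.2 in empty vector. Knockout was near 0, empty vector was highest, and the log2 change was 5.15 ± 0.19 (SE; adjusted p = 4.0e-14). Gli1, a target of the pathway, rose from 21.8 ± 1.53 to 38.4 ± 2.11 CPM, while Gli2, a mediator, fell to near 0 (-5.48 ± 0.62). Of TGF-beta and BMP genes 8 rose and 18 fell of 39 tested (median -0.28), or 13 and 16 with library totals. The latent binding proteins Ltbp1 and Ltbp3 fell from 42.4 ± 3.36 to 0.543 ± 0.101 CPM and from 312 ± 11.2 to 80.7 ± 4.12 CPM, and Tgfb1 from 101 ± 6.34 to 39.4 ± 1.29 CPM. Gdf5, of the BMP family, rose from 1.11 ± 0.0592 to 13.7 ± 1.72 CPM. Of Wnt genes 3 rose and 14 fell of 24 tested (median -0.40), with the receptors Lgr6 and Fzd2 falling from 25.8 ± 3.77 to 5.56 ± 0.231 CPM and from 131 ± 6.46 to 83 ± 5.69 CPM. Axin2, a common readout of the pathway, was not called at -0.05 ± 0.09 (adjusted p = 0.65).

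Among single genes outside these lists, the largest rises at 5 CPM or more in rescue included Fam198b (1.21, 1.65 and 1.14 CPM in knockout and 9.27, 8.98 and 9.5 CPM in rescue), Smtnl2 (3.05, 2.73 and 1.18 CPM in knockout and 13.5, 12.6 and 10.9 CPM in rescue) and Map3k7cl (12.4, 12.8 and 11.7 CPM in knockout and 67.6, 61.1 and 57.7 CPM in rescue). None of them overlapped between groups. Fmo2, a flavin monooxygenase, rose from 7.92 ± 1.26 to 34.4 ± 1.06 CPM, the LIM protein Fhl2 from 12.9 ± 1.4 to 54 ± 3.24 CPM, Ccdc141 from 1.95 ± 0.407 to 7.61 ± 0.731 CPM and Ager, the receptor of glycated proteins, from 1.86 ± 0.246 to 7.19 ± 0.699 CPM. Myo5b, a motor of apical recycling, rose from 0.183 ± 0.191 to 6.04 ± 0.593 CPM and Islr2 from 0.35 ± 0.0277 to 7.24 ± 0.731 CPM. Among abundant genes, Ugp2, which makes UDP-glucose, rose from 103 ± 3.96 to 238 ± 10.4 CPM, Rpia, of the pentose phosphate pathway, from 50.2 ± 3.87 to 116 ± 8.66 CPM, Dstn, which severs actin, from 51 ± 6.15 to 116 ± 6.72 CPM, Prkci from 136 ± 6.98 to 284 ± 15.3 CPM and the nucleolar Esf1 from 54.7 ± 2.34 to 111 ± 6.54 CPM. Hspa12a rose from 111 ± 9.57 to 255 ± 10.6 CPM and Tmem171 from 50.5 ± 2.91 to 109.7 ± 8.14 CPM.

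Among the largest falls, Fhl1 had no count in rescue, against 144, 94 and 133 counts in knockout and 38, 18 and 40 in empty vector. With 3 counts over the rescue group as the limit of detection, it was at least 149-fold lower there than in knockout. Prrg1 had 85, 71 and 121 counts in knockout and none in rescue or empty vector, at least 111-fold lower by the same limit. Both genes lie on the X chromosome. Spon2 fell from 6.06 ± 0.831 to 0.063 ± 0.00826 CPM, Stra6l from 6.04 ± 0.785 to 0.0812 ± 0.0249 CPM, the carotene oxygenase Bco1 from 39.4 ± 2.59 to 0.689 ± 0.179 CPM and the fetal serum protein Afp from 9.89 ± 0.992 to 0.208 ± 0.162 CPM. Rescue overlapped empty vector for Spon2, Bco1 and Afp, so their high level was that of knockout alone. Ugt1a6b fell from 5.89 ± 1.66 to 0.12 ± 0.0467 CPM; its locus shares exons among isoforms, so its counts are uncertain. The abundant Selenop, which carries selenium, had 415, 510.5 and 510.2 CPM in the knockout libraries, 48.9, 45 and 40.1 in rescue and 57, 37.4 and 41.9 in empty vector, high in knockout alone, and changed by -3.42 ± 0.16 (SE; adjusted p = 1.4e-07). Folr1, the folate receptor, fell from 152 ± 5.34 to 21.8 ± 1.73 CPM, Tspan8 from 110.4 ± 6.15 to 10.8 ± 0.951 CPM and the magnesium transporter Slc41a2 from 111 ± 7.29 to 8.64 ± 0.898 CPM. Among renal transcription factors, Pax8 rose from 98.7 ± 6.86 to 165 ± 13.4 CPM, and Pax2 was not called (-0.02 ± 0.06, adjusted p = 0.83). Of the renal tubule markers as a list 3 rose and 4 fell of 10 tested (median -0.29), or 4 and 3 with library totals. Aqp2 fell from 6.69 ± 0.981 to 1.5 ± 0.295 CPM and Cdh16 from 704 ± 54.3 to 489 ± 50.4 CPM.

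Among noncoding RNAs, Eprn had 0.381, 0 and 0.337 CPM in the knockout libraries, 14.5, 15.6 and 13.5 in rescue and 11.8, 16.6 and 12.2 in empty vector. Its knockout libraries were near 0, rescue and empty vector overlapped, and the log2 change was 5.72 ± 0.29 (SE; adjusted p = 2.7e-11). Mirt1 rose from 3.52 ± 0.424 to 8.53 ± 0.744 CPM and Hoxb5os from 7.19 ± 0.481 to 17.6 ± 1.39 CPM. In the other direction G630018N14Rik fell from 5.86 ± 1.08 to 0.366 ± 0.121 CPM, and 2310043M15Rik, annotated as antisense on chromosome 16, fell from 21.8 ± 2.26 to 3.12 ± 0.368 CPM; without the strand setting, its reads cannot be told apart from those of an overlapping gene. Of 290 tested zinc finger genes named Zfp 67 rose and 32 fell (median 0.07), or 118 and 8 with library totals. Zfp991 fell from 9.88 ± 1.57 to 0.0301 ± 0.0278 CPM and Zfp930 rose from 9.96 ± 0.599 to 18.6 ± 1.61 CPM. Of chromatin enzymes 20 rose and 8 fell of 56 tested, or 36 and 4 with library totals. The demethylase Kdm5b fell from 27.5 ± 1.1 to 6.08 ± 0.824 CPM and Suz12, a Polycomb subunit, rose from 131 ± 7.43 to 212 ± 6.58 CPM.

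Changes were uneven along the genome. On chromosome 16, 42 genes rose and 220 fell of 420 tested (10.0% and 52.4%), with a median log2 change of -0.28, beside 0.03 over all genes. Relative to the empty-vector mean and to all genes of the same library, the median of chromosome 16 was 0.25, 0.26 and 0.26 in knockout and -0.01, -0.05 and -0.03 in rescue. The shift thus stood in each knockout library and in no rescue library. The 7 windows tested all had negative medians: in the windows of 0 to 10, 10 to 20, 20 to 30 and 30 to 40 Mb the medians were -0.36, -0.27, -0.28 and -0.33, and at 90 to 100 Mb -0.41, while at 50 to 60 Mb it was -0.15 and at 40 to 50 Mb -0.06. Genes named above for their lists lie on this chromosome too. Among them Abcc5 (-1.30), Cd47 (-1.28), Dnajb11 (-0.89) and Cox17 (-0.81) fell, and Etv5 (1.11) rose.

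On chromosome 3 a shift stood in neighbouring windows. From 100 to 110 Mb 2 genes rose and 57 fell of 84, with a median of -0.46. The library medians there were 0.49, 0.57 and 0.49 in knockout and 0.03, -0.09 and 0.01 in rescue. The windows at 110 to 120, 120 to 130 and 130 to 140 Mb had medians of -0.36, -0.28 and -0.33 (-0.45, -0.33 and -0.4 with that offset), and the next, at 140 to 150 Mb, 0.00 (-0.11). The 4 windows tested below 70 Mb leaned the other way, with medians of 0.18 to 0.34, which were 0.08 to 0.24 with GC content as an offset. At 100 to 110 Mb Olfml3 fell from 39.6 ± 2.27 to 0.851 ± 0.262 CPM, Celsr2 from 736 ± 62.3 to 243 ± 26.8 CPM, Slc6a17 from 284 ± 30.7 to 64.1 ± 3.54 CPM, Mov10 from 120.4 ± 7.24 to 37.5 ± 4.4 CPM and Slc22a15 from 7.71 ± 0.815 to 1.34 ± 0.506 CPM. On chromosomes 13 and X the medians were 0.18 and 0.21 (0.12 and 0.14 with that offset), with knockout libraries at -0.18 to -0.14 and at -0.13 to -0.09. Chromosome 4 as a whole had a median of -0.03, but its window of 50 to 60 Mb had -0.37, with 6 genes higher and 15 lower of 29. DNA copy number was not measured here. Among interferon genes on chromosome 16, Ifngr2 changed by -0.72 ± 0.07, Ifnar1 by -0.85 ± 0.07, Ifnar2 by -1.09 ± 0.07 and Mx2 by -3.51 ± 0.22, beside that chromosome's median of -0.28.

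**Figure D4:**
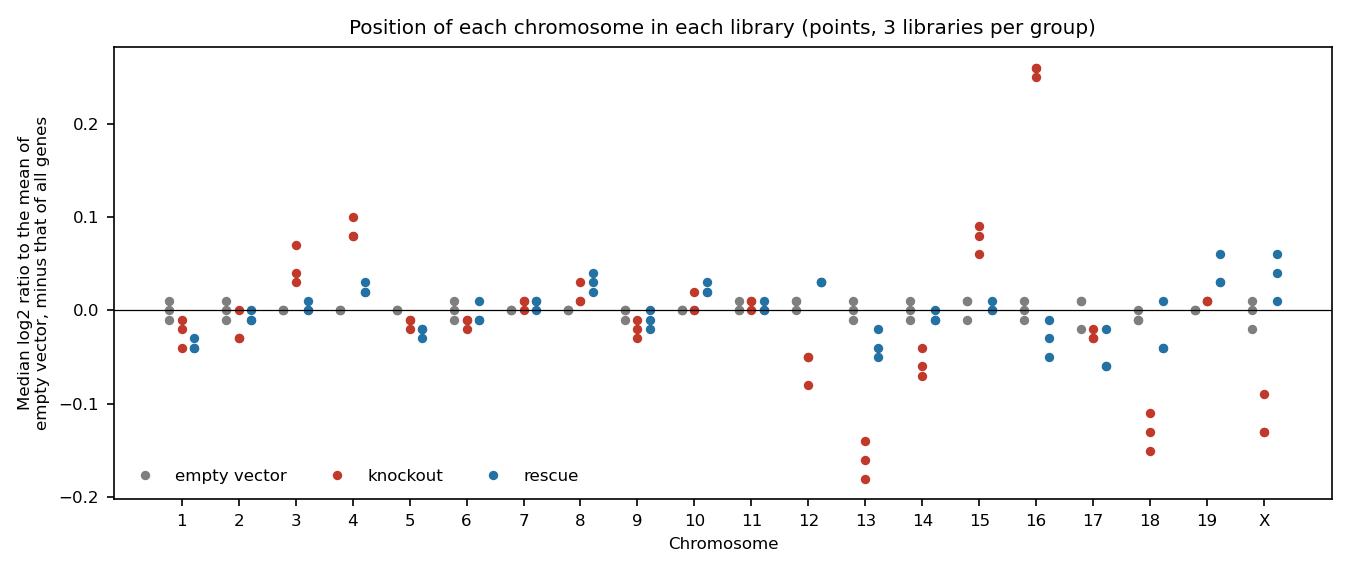
For each library (point) and chromosome (x axis), the median over tested genes of the log2 ratio to the empty-vector mean, minus the same median over all genes (y axis). The knockout libraries stand at 0.25 to 0.26 on chromosome 16 and at -0.18 to -0.09 on chromosomes 13, 18 and X. On the other chromosomes drawn they lie between -0.08 (chromosome 12) and 0.10 (chromosome 4). The rescue libraries stay within 0.06 of 0 on the chromosomes drawn, 1 to 19 and X.

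The direction of change also moved with the base composition of transcripts. Protein-coding genes were put into 5 equal groups by GC content of the longest transcript. From a median of 41.9% to 58.3% GC, the share called higher went 45.0%, 40.3%, 34.0%, 22.6% and 18.3%. The share called lower went 18.6%, 24.4%, 29.3%, 37.4% and 39.2%, and the median log2 change ran from 0.19 to -0.13. By transcript length the medians ran from 0.09 in the shortest of 5 groups to -0.05 in the longest. Between rescue and empty vector, which share the rescue libraries with this comparison, the medians by GC group lay between -0.05 and 0.01, and by length they ran from 0.06 to -0.11. With GC content added as an offset, medians by GC group were 0.01 to 0.05 and by length ran from 0.12 to -0.1, 3876 genes rose and 3602 fell, of which 6658 were also called without the offset. Lysosomal genes were then 1 higher and 44 lower, the GTPases 0 and 14, antiviral effectors 2 and 39, ribosomal proteins 55 and 1, and mitosis genes 38 and 5. The chromosome 16 median was -0.32 and that of 100 to 110 Mb on chromosome 3 -0.51. Zfp genes, with a median GC content of 44.7%, went from 67 higher and 32 lower to 60 and 39.

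**Figure D5:**
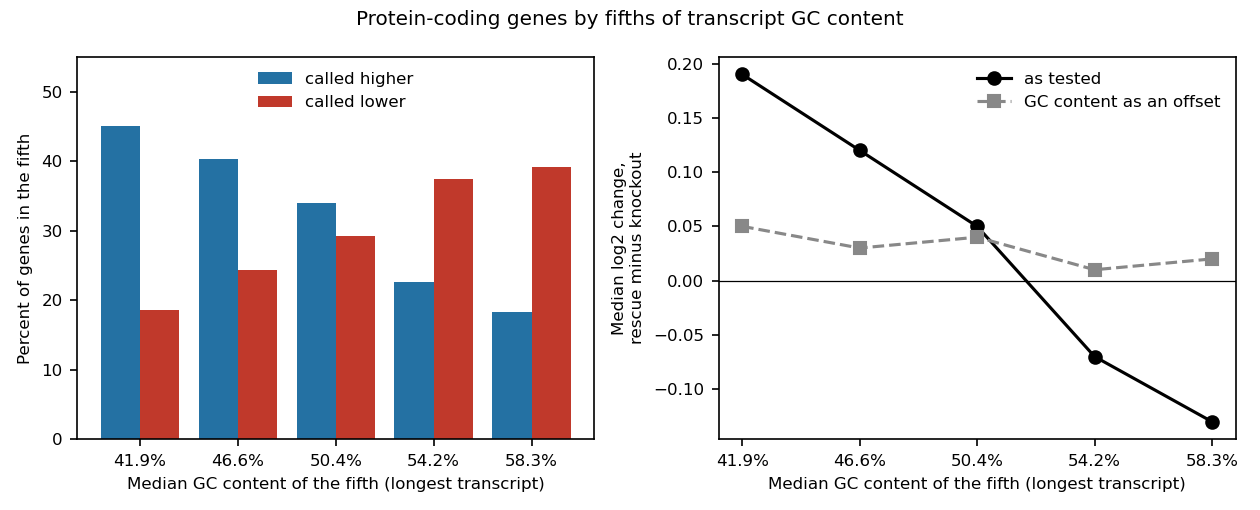
Left, percent of protein-coding genes called higher (blue) and lower (red) in 5 equal groups by transcript GC content; right, the median log2 change from knockout to rescue in each group, as tested (black) and with GC content as an offset (grey). The share called higher falls from 45.0% to 18.3% over the groups, and the offset brings the medians to between 0.01 and 0.05.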

How the data were processed

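Poly(A)-selected RNA of RENCA cells was sequenced in 9 libraries, 3 per group, per the labels' protocols. The submitters' processing notes list mm10 and the tools TopHat2, HISAT, HISAT2 and CASAVA without saying what each did. Directional and non-directional preparation are both described, and the strand setting of the counting is not stated. Genomic DNA is entered as the extracted molecule, against the RNA protocol. All 3 knockout libraries in the table were used, although the design text counts fewer. Whole-number counts per gene were deposited by the authors without normalization, per the file headers and values. The deposited table also holds FPKM values, per the file headers, which were not tested; neither were the authors' own log2 fold changes, p-values and group means.

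From the counts, genes were kept by filterByExpr, libraries scaled by TMM factors, and 1 mean per group fitted to all 9 libraries with edgeR 4.0.16 in R 4.3.3 (robust quasi-likelihood F-test). P-values were adjusted by Benjamini-Hochberg over the 13326 genes, with calls made below 0.05. The SE was taken as |log2 change| / sqrt(F), and CPM uses TMM-scaled totals. No pair of replicates was alike within sampling noise: chi-square divided by its degrees of freedom was 3.43 to 18.36. Scripts were tested on simulated data. The comparison, its 69 gene lists and its members were chosen with earlier results of these data known. Some genes belong to several lists. Lists are described by counts and medians.

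Named genes are Ndufa4l2 and Ndufa4, the 20 largest changes per direction among protein-coding genes at 5 CPM or more, 15 per direction at 100 CPM or more, 6 noncoding genes per direction, genes with 0 counts in a group, up to 5 called members of each list, up to 5 genes of a described window, and further list members given as values. Some genes that the rule chose are summarised by counts, and a few are not reported here. Alternatives were DESeq2 1.42.0 with its size factors, library totals, other filters, only 6 libraries, no mitochondrial genes, a replicate block and leaving out each library. GC content as an offset (lowess, span 0.3, from the longest transcript of the reference annotation) was added after seeing the data. Chromosome medians used a pseudocount of 0.5 CPM and windows of 10 Mb with at least 20 genes. Promoters were taken from RefSeq (GRCm38.p6).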

Additional observations from a re-analysis of the deposited data

How the results depend on the processing

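Scaling by library totals without TMM factors shifted the median log2 change over all genes up by 0.18. Then 5916 genes rose and 2582 fell, so that 69.6% of calls were higher in place of 51.9%, and 494 genes rose by at least 1 log2 unit. Restricting the test to genes with a mean of at least 5 CPM left 93 genes higher and 625 lower by at least 1 log2 unit, since fewer genes were tested. Of 90 counts of called genes over all settings 4 moved by more than 1.5 times, namely the counts above, except that of genes that fell. DESeq2 called 3480 genes higher and 3644 lower. Leaving out a library gave 3550 to 4413 higher and 3384 to 3870 lower, 284 to 304 and 1143 to 1241 by at least 1 log2 unit, and 5278 to 6959 between rescue and empty vector. With a replicate block the counts were 3822 and 3545. The numbers do not pair the libraries: correlations of the deviations of knockout and rescue libraries with the same number were 0.027, -0.045 and 0.019, and not every library correlated best with its own number. Of 393 genes chosen by the naming rule that passed, 9 missed the threshold or turned under at least 1 alternative. Ndufa4 alone of them turned direction, to 0.01 with library totals. The others were Atp5f1, Hoxa5, Sdhaf4, Rps27a, Pecam1, Etv5, mt-Co3 and Cdh16. Further list members given as values were not in this count, and some, such as Ero1l, lost their call under an alternative. Genes below about 1 CPM rest on few counts, and their changes are the least precise.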
